A study of Mus musculus with 2 samples.

Results

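The Ms4a4b cluster is a group of thymocytes that the authors' clustering set apart in single-cell RNA sequencing of whole mouse thymus. Its members were all cells with the cluster number 7 in the deposited cell table, and they numbered 728 of 13683 cells. In the library labelled WT they were 332 of 6115 cells, or 5.43% (95% interval 4.87 to 6.03), and in the library labelled KO they were 396 of 7568 cells, or 5.23% (4.74 to 5.76). The WT library pooled thymocytes of 5 Cdc42f/f mice, and the KO library pooled those of 5 Cdc42f/f CD4Cre littermates, all at 6 weeks of age. Both genotypes carry the floxed Cdc42 allele, and only the KO mice carry Cre, which the CD4 promoter drives in thymocytes that have reached the double-positive (DP) stage, so that cells of earlier stages and cells that never express CD4 keep the allele. Each condition is 1 library, so the WT and KO values carry no statistical test, and all intervals are exact 95% intervals that cover counting error only.

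Single-positive (SP) thymocytes are the last stage of T cell development in the thymus. A DP cell that passes positive selection keeps 1 coreceptor, CD4 or CD8, under the control of the transcription factors ThPOK (encoded by Zbtb7b) and Runx3. As an SP cell matures it loses immature surface proteins and gains the transcription factor Klf2, which drives expression of S1pr1, the sphingosine-1-phosphate receptor through which mature cells leave the thymus for the blood. Ms4a4b encodes a membrane protein of mature T cells. These genes were among those from which the clusters were made, so their levels in the cluster are a description and not a finding.

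The 3 markers fitted the label of mature SP cells. Levels are unique molecular identifiers (UMIs) summed over the cells of a group and divided by the group's total, in counts per 1000000 UMIs (CPM). S1pr1 stood at 261 in WT cells of the cluster (240 to 282) and at 643 in KO cells (610 to 677), the highest of 19 clusters in each library. The next cluster reached 95.4 and 120. Ms4a4b was highest of all clusters in WT, at 1591, and second in KO, at 1875, where a small neighbouring cluster of 24 WT and 8 KO cells reached 2232. Klf2 was second in WT, at 679 against 697 in that neighbour, and highest in KO, at 1626. Itm2a, a gene of recently selected SP cells, was at 167 in WT and 128 in KO, against 1613 and 2064 in the SP cluster that it marks. By ratio of the mean level in its cells to that in all other cells, the genes leading the cluster were Dapl1, St8sia6, S1pr1, Rflnb, Gm2682, D930028M14Rik, G430095P16Rik, Il6ra, Gm8369 and Ms4a4b. S1pr1 had a UMI in 78.3% of the cells and Ms4a4b in 96.6%, whereas Dapl1, the first of the 10, had one in 12.9%.

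The libraries differed within the cluster in ways that bear on every comparison between them. WT cells had a median of 6737.5 UMIs and KO cells of 5032, with 2328696 and 2266732 UMIs in all. Genes of ribosomal proteins took 30.7% of the WT UMIs and 21.9% of the KO UMIs. In the Itm2a cluster these shares were 24.0% and 17.6%, and in the largest DP cluster 12.3% and 11.8%. No cell barcode of the cluster occurred in both libraries. Cdc42 itself stood at 447 CPM in WT and 581 in KO, and because these libraries read the 3′ ends of transcripts outside the floxed exon, this value does not check the labels. Every direction below rests on the labels as deposited.

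The cells were sorted by their own coreceptor UMIs. Cells with Cd4 UMIs and no Cd8a or Cd8b1 UMIs are called Cd4-only, and cells with Cd8a or Cd8b1 UMIs and no Cd4 UMIs are called Cd8-only. In WT, 76 cells were Cd4-only (22.9%, interval 18.5 to 27.8) and 106 were Cd8-only (31.9%, 26.9 to 37.2). In KO, 90 cells were Cd4-only (22.7%, 18.7 to 27.2) and 97 were Cd8-only (24.5%, 20.3 to 29.0). Cells with UMIs of both kinds made up 21.4% in WT (17.1 to 26.2) and 29.8% in KO (25.3 to 34.6), and cells with neither 23.8% and 23%. The Cd8-only and double-labelled shares overlapped at their interval ends between the libraries. A missing UMI is not a missing coreceptor. In the largest DP cluster, whose cells carry both coreceptors, the same sort gave 0% Cd4-only cells but 26.4% Cd8-only cells in WT and 19.1% in KO, at median depths of 2539.5 and 2852.5 UMIs. Coreceptor UMIs were also found in other kinds of cells. In the Cd74 cluster of B and dendritic cells, 19% of WT and 16.1% of KO cells were Cd8-only. There 0% were Cd4-only, and 9.52% and 16.1% carried both. In the Apoe cluster of macrophages, 23.3% and 10.2% were Cd4-only and 16.7% and 12.2% Cd8-only. The part of RNA from outside the cell in the sort was not tested.

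Lineage genes that played no part in the sort differed between the classes in each library. Of 9 CD4 lineage genes, all 9 were higher in Cd4-only cells of WT, with a median log2 ratio of Cd4-only over Cd8-only of 1.43 against 0.04 for all genes, and 7 were higher in KO, with a median of 0.56 against −0.01. Of 13 CD8 lineage genes, 10 had enough UMIs in WT and all 10 were lower in Cd4-only cells, with a median of −2.26, and 8 had enough in KO, where 7 were lower and the median was −2.19. Enough means at least 20 UMIs over the cells compared. A ratio of at least 2-fold was counted among 1472 genes with at least 100 UMIs in each library. In both libraries at once, 6 genes (0.408%) were higher in Cd8-only cells and 0 genes (0%) in Cd4-only cells.

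The genes past that mark were Runx3, Ccr9, Nkg7, Ctsw, Plac8 and Ccl5. Runx3 had 23 UMIs in the Cd4-only and 170 in the Cd8-only cells of WT, and 20 and 118 in those of KO, which gave log2 ratios of −2.14 (interval −2.87 to −1.54) and −2.23 (−3.02 to −1.56). Ccr9, the receptor for the thymic chemokine Ccl25, had 40 and 262 UMIs in WT and 37 and 194 in KO, ratios of −1.98 (−2.51 to −1.51) and −2.07 (−2.63 to −1.57). For both genes the intervals of the libraries overlap. Ccr9 is also a transcript of DP cells, at 1370 CPM in WT and 1530 in KO in the largest DP cluster, against 241 and 333 here. The sort placed cells of that DP cluster among Cd8-only but not among Cd4-only cells. Without cells that carried UMIs of DP or innate-like marker genes, the KO ratio of Ccr9 was −1.07 in place of −2.07. The part of DP cells in the Ccr9 ratios was not tested. Nkg7, which encodes a protein of cytotoxic granules, had UMIs in 74 of 106 Cd8-only cells of WT and in 35 of 97 of KO, against 3 of 76 and 2 of 90 Cd4-only cells. Ctsw, the lysosomal protease cathepsin W, had log2 ratios of −1.34 (−1.78 to −0.93) and −1.14 (−1.67 to −0.65). The other 2 of the 6 rest on few cells. In Cd8-only KO cells, 1 cell held 103 of 140 UMIs of Plac8 and 1 cell held 127 of 140 UMIs of the chemokine Ccl5, and in WT 1 cell held 72 of 120 Ccl5 UMIs. Without cells that carried UMIs of DP or innate-like marker genes, 1 gene was past 2-fold in this direction and 1 in the other, and Ccl5 turned to the Cd4-only side in KO.

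Itgae, the integrin chain αE (CD103) that marks CD8 SP cells, had 103 UMIs in 51 Cd8-only cells of WT and 37 UMIs in 12 Cd8-only cells of KO, against 2 UMIs in 1 Cd4-only cell of WT and 0 UMIs in KO. At 90 cells, a floor of 3 counts allows up to 3.33% of cells with a UMI, and the exact interval reaches 4.02%. On the CD4 side, Zbtb7b had 19 and 10 UMIs in Cd4-only and Cd8-only cells of WT and 34 and 14 in KO, ratios of 1.61 (0.46 to 2.91) and 1.56 (0.65 to 2.60). Cd40lg, the CD40 ligand of helper T cells, had 29 and 14 UMIs in WT and 36 and 6 in KO, ratios of 1.74 (0.80 to 2.80) and 2.80 (1.63 to 4.43). Gpr183, a receptor for oxysterols, had 41 and 12 UMIs in WT and 73 and 39 in KO. Slfn1, a Schlafen family gene, led the genes that were higher in Cd4-only cells of both libraries, with ratios of 0.99 (0.69 to 1.28) and 0.94 (0.62 to 1.25), just under 2-fold. The UMI counts of Zbtb7b and Cd40lg are low and leave wide intervals.

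**Figure D1:**
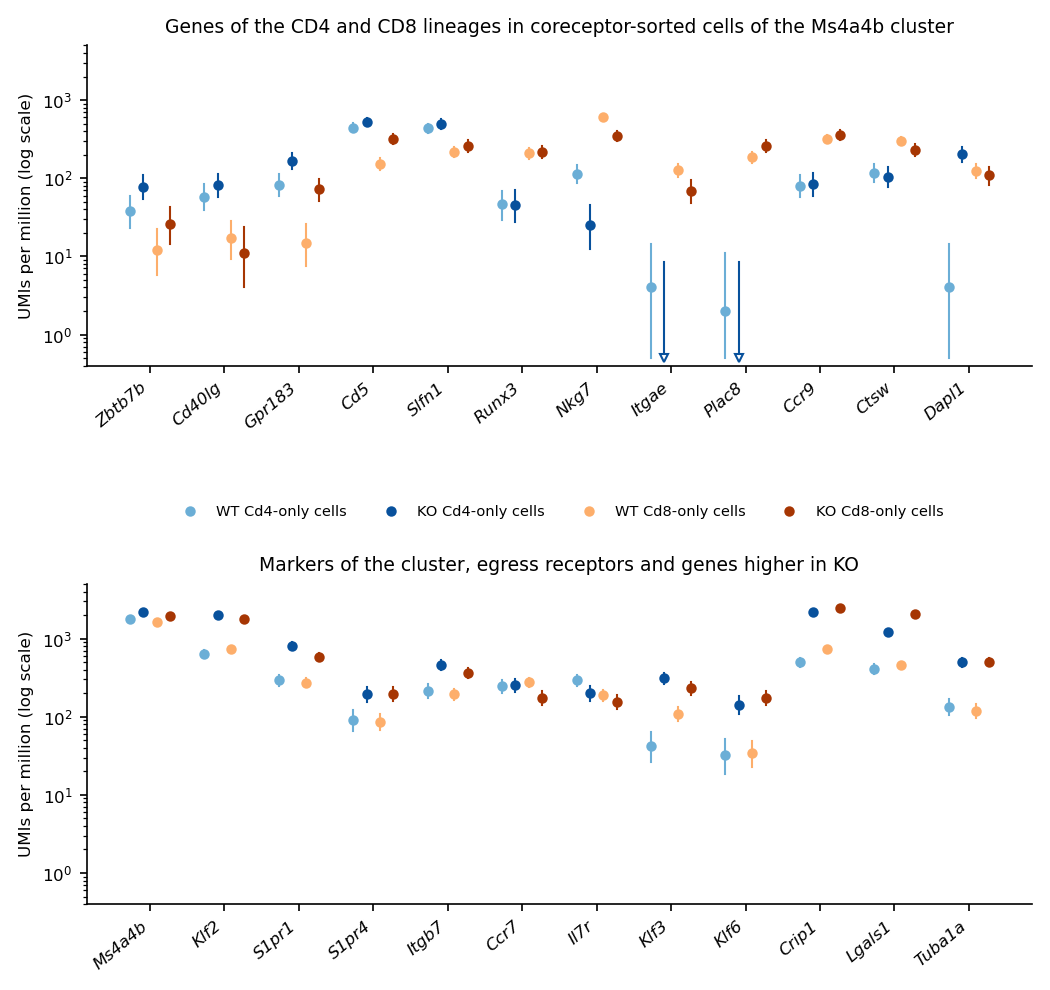
Levels in CPM (log axis) of lineage genes (upper panel) and of cluster markers, egress receptors and genes higher in KO (lower panel) in Cd4-only and Cd8-only cells of the WT and KO libraries, with lines for exact 95% Poisson intervals and open triangles for a level of 0, drawn at 0.5. Runx3 stood at 46.2 and 208 in the Cd4-only and Cd8-only cells of WT and at 45.7 and 218 in those of KO, whereas Klf2 was higher in KO in each class.

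Dapl1, the gene leading the cluster, did not keep this pattern. In WT it had 2 UMIs in 2 Cd4-only cells and 101 UMIs in 14 Cd8-only cells, and in KO it had 89 UMIs in 21 of 90 Cd4-only cells and 59 UMIs in 15 of 97 Cd8-only cells. The Cd4-only over Cd8-only ratio was −4.63 (−8.01 to −3.05) in WT and 0.89 (0.41 to 1.40) in KO, so that it stood on opposite sides of 0. In Cd4-only cells the log2 ratio of KO over WT was 5.35 (3.77 to 8.73). It rests on 2 UMIs on the WT side, but the 89 KO UMIs were spread over cells with at most 12 each. Tnfrsf4 (OX40), a receptor of activated CD4 T cells, had 97 UMIs in Cd4-only and 8 in Cd8-only cells of WT, and 20 and 13 in KO.

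KO beside WT was first read as a count. With sums divided by all UMIs, 42 of 1339 genes (3.14%) were at least 2-fold higher and 9 (0.672%) at least 2-fold lower in KO in Cd4-only cells. In Cd8-only cells 80 of 1984 genes (4.03%) were higher and 18 (0.907%) lower. In both classes at once 25 of 1326 genes (1.89%) were higher and 5 (0.377%) lower, and these 5 were H2-Q7, Rgs10, Id2, Ikzf2 and AW112010. The balance of higher and lower depended on the scaling. With TMM factors, which take the typical gene as unchanged, 19 genes were higher and 20 lower in Cd4-only cells, and 25 higher and 54 lower in Cd8-only cells. With DESeq2 size factors the counts were 19 and 20, and 26 and 54. With totals that omit mitochondrial genes and those of ribosomal proteins they were 20 and 17, and 35 and 40. The median gene stood at a log2 ratio of 0.19 in Cd4-only cells and 0.27 in Cd8-only cells, and TMM factors moved it by −0.19 and −0.28. Ratios of KO over WT are therefore given below relative to this median, which was subtracted from each. Counts of genes past 2-fold were made before this subtraction. Here and below, a sum over cells does not tell fewer expressing cells from less RNA per cell, so shares of cells are given for the leading genes.

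**Figure D2:**
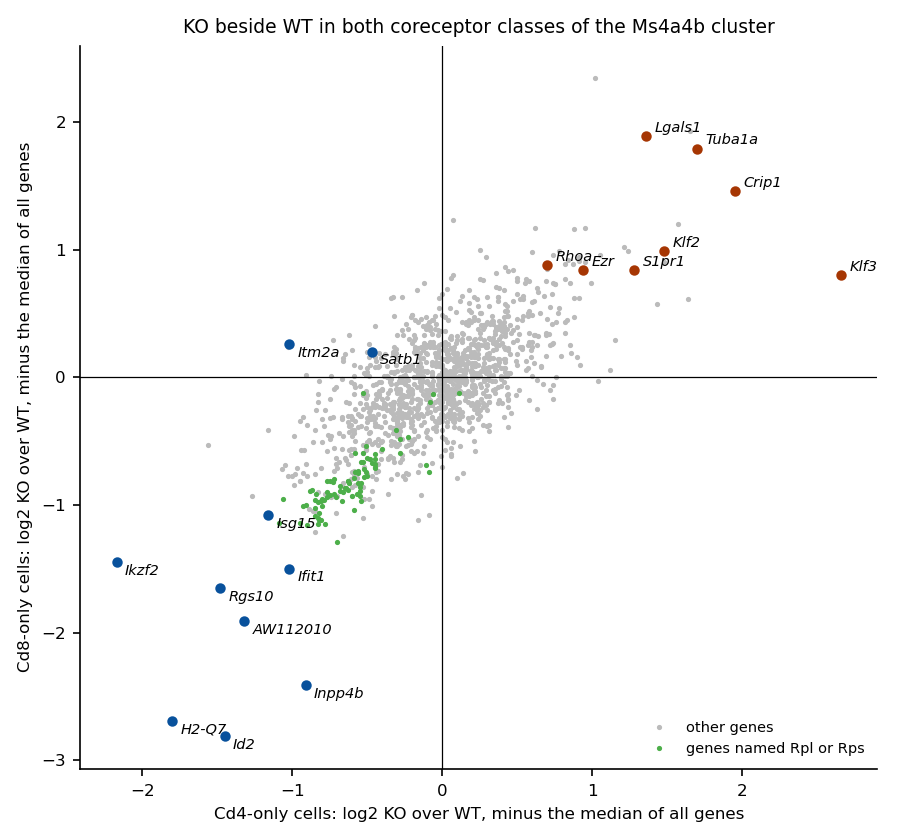
Log2 ratio of KO over WT, minus the median of all genes, in Cd4-only cells (horizontal axis) and Cd8-only cells (vertical axis), 1 point for each of 1326 genes with at least 100 UMIs in each class, with ribosomal protein genes in green. Crip1, Lgals1, Tuba1a and Klf2 lie far up and right, H2-Q7, Ikzf2, Rgs10 and Id2 far down and left, and 83 of 84 ribosomal protein genes lie below 0 on both axes.

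The egress program differed within itself. Klf2 stood at 632 CPM in Cd4-only cells of WT and 2011 in KO, and at 746 and 1784 in Cd8-only cells, relative log2 ratios of 1.48 (1.29 to 1.67) and 0.99 (0.84 to 1.14). S1pr1 stood at 293 and 811 in Cd4-only cells and at 271 and 586 in Cd8-only cells, relative ratios of 1.28 (1.00 to 1.57) and 0.84 (0.59 to 1.10). S1pr4, another sphingosine-1-phosphate receptor, had relative ratios of 0.91 in each class, and Itgb7, the integrin chain β7 used in homing to the gut, of 0.91 and 0.62. Ccr7, the chemokine receptor that guides SP cells to the medulla, stood apart from these, at 245 and 254 in Cd4-only cells and 276 and 176 in Cd8-only cells, relative ratios of −0.14 (−0.52 to 0.25) and −0.92 (−1.28 to −0.57). Il7r, the interleukin-7 receptor on which naive T cells depend, was at −0.72 (−1.12 to −0.33) and −0.55 (−0.95 to −0.16). Ms4a4b, at 0.10 and −0.02, was within 0.1 of the typical gene in each class.

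Over whole lists, 7 of 13 egress and homing receptors with enough UMIs lay above the median of all genes in Cd4-only cells and 8 of 14 in Cd8-only cells, with list medians of 0.18 and 0.21 above it. Of 9 and 10 of them with at least 100 UMIs, 4 and 2 were at least 2-fold higher before the median was subtracted. The shares over all genes were 3.14% and 4.03%. The 28 genes of late SP maturation had medians of 0.05 and 0.06, with 15 above the median of all genes in each class. Of 21 and 24 of them with at least 100 UMIs, 4 and 5 were at least 2-fold higher before the subtraction, against 3.14% and 4.03% of all genes. At least 2-fold lower were 0 and 1. The higher ones were Klf2, S1pr1, Lgals1 and Itgb7 in Cd4-only cells and Klf2, S1pr1, Lgals1, S100a4 and S100a6 in Cd8-only cells. After subtraction Itgb7 in Cd4-only cells and Klf2 and S1pr1 in Cd8-only cells were short of 2-fold. The list's median thus lay near the typical gene while a few of its members lay well above it. Gimap7, Bcl2 and Ms4a4c of that list lay below the median of all genes in each class, Gimap7 at −1.36 and −1.39, and Lgals1, Ly6c1 and Itgb7 lay above it.

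To set aside the difference in depth, each cell was thinned to 2000 UMIs, which left out 6 WT and 2 KO cells. Klf2 then had a UMI in 66.7% of Cd4-only and 67.9% of Cd8-only cells of WT, and in 94.4% and 87.5% of those of KO. Over the whole cluster the shares were 66.9% (61.5 to 72.0) and 87.8% (84.2 to 90.9), and before thinning 84.9% and 96.2%. S1pr1 had a UMI in 39.0% of WT cells (33.6 to 44.5) and 69.8% of KO cells (65.0 to 74.3), and before thinning in 65.1% and 89.4%. In the DP clusters, which should lack these transcripts, the thinned shares were 1.29% and 4.17% for Klf2 and 0.0307% and 0.0665% for S1pr1, far below those of the cluster. Klf2 was nonetheless higher in KO there too. In the largest DP cluster it had 8 WT and 70 KO UMIs, a relative ratio of 2.51 (1.53 to 3.85). Over all cells of the Ms4a4b cluster its relative ratio was 1.02 (0.94 to 1.11). The share of S1pr1-positive cells and the S1pr1 level of the whole sum were both higher in KO. In the Itm2a cluster, the earlier SP cells, Klf2 was at a relative ratio of 0.54 (0.36 to 0.73) but S1pr1 at −0.90 (−1.72 to −0.18), on 58 WT and 21 KO UMIs, whereas over all cells of the Ms4a4b cluster S1pr1 was at 1.06 (0.93 to 1.20).

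**Figure D3:**
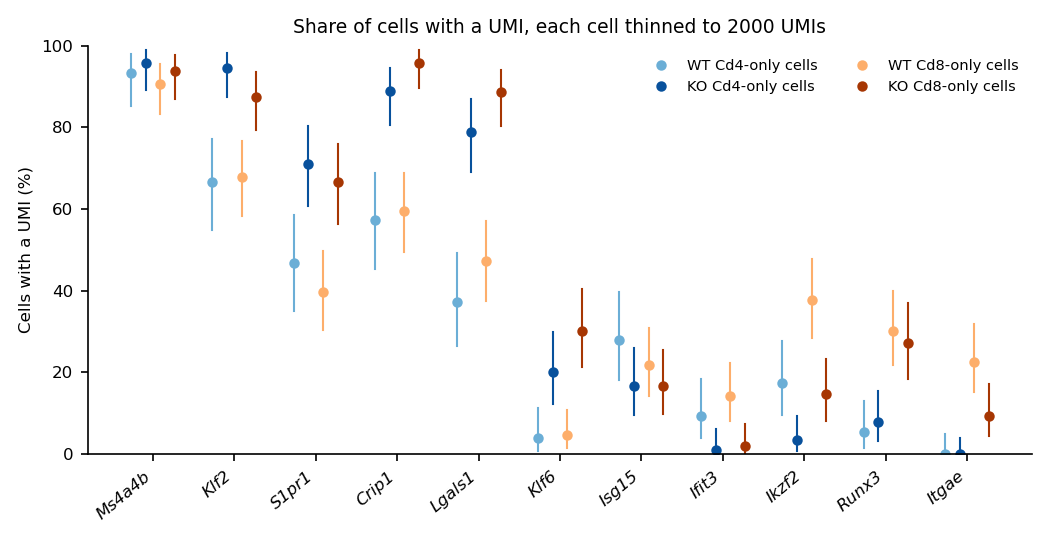
Share of cells (%) with at least 1 UMI of each gene in Cd4-only and Cd8-only cells of the WT and KO libraries after each cell was thinned to 2000 UMIs, with exact 95% binomial intervals. Klf2, S1pr1, Crip1 and Lgals1 were found in more KO than WT cells of each class, and Ifit3 in fewer, at 9.33% and 14.2% in WT and 1.11% and 2.08% in KO.

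The genes with the highest KO over WT ratios in both classes included Tuba1a, Crip1, Lgals1, Tsc22d3, Stk38 and Klf2. Crip1, a small LIM-domain protein, stood at 496 CPM in Cd4-only cells of WT and 2192 in KO, and at 746 and 2476 in Cd8-only cells, relative ratios of 1.95 (1.75 to 2.16) and 1.46 (1.33 to 1.61). It had a UMI in 57.3% and 59.4% of the thinned WT cells and in 88.9% and 95.8% of the KO cells. Lgals1, which encodes the secreted lectin galectin-1, was at 412 and 1207 in Cd4-only cells and at 457 and 2041 in Cd8-only cells, relative ratios of 1.36 (1.13 to 1.60) and 1.89 (1.72 to 2.07). Both transcripts were also found in the DP clusters, Crip1 in 33.3% and 40.7% of their thinned cells and Lgals1 in 40.3% and 42.7%, so their shares here are not free of that background. Tuba1a, an alpha-tubulin, was at 1.70 and 1.79, and Tsc22d3, the glucocorticoid-induced leucine zipper protein GILZ, at 1.57 and 1.20.

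Other Krüppel-like factors were higher in KO beside Klf2. Klf6 had 16 and 62 UMIs in Cd4-only cells and 28 and 94 in Cd8-only cells, relative ratios of 1.92 (1.14 to 2.85) and 2.06 (1.46 to 2.74). Klf3 had 21 and 135 UMIs in Cd4-only cells but 90 and 125 in Cd8-only cells, relative ratios of 2.66 (2.01 to 3.42) and 0.80 (0.40 to 1.21), and among genes with at least 100 UMIs in each class it had the largest excess of the Cd4-only over the Cd8-only ratio. In WT, Klf3 was lower in Cd4-only than in Cd8-only cells, by a log2 ratio of −1.36 (−2.14 to −0.69), and in KO the ratio was 0.42 (0.05 to 0.78). In the largest DP cluster Klf6 was also higher in KO, at a relative ratio of 1.16 (0.80 to 1.55). Klf3 stood there at 268 CPM in WT and 277 in KO, a relative ratio of 0.02 (−0.12 to 0.16). Over all cells of the Ms4a4b cluster Klf3 stood at 97.1 and 288. Rasgrp2, which activates the integrin regulator Rap1, was at 1.48 and 0.90. Anxa2, the membrane-binding annexin A2, was at 1.89 and 2.20, and Adgre5 (CD97), an adhesion receptor, at 1.77 and 2.46. Ass1, the urea cycle enzyme argininosuccinate synthase, was at 1.02 and 2.34. Among genes with at least 100 UMIs, S100a4 had the highest ratio in Cd8-only cells, with 14 and 142 UMIs, but 1 KO cell held 81 of the 142, and its log2 ratio before subtraction was 0.93 in place of 3.89 without cells that carried DP or innate-like marker UMIs. S100a6, a related calcium-binding protein, went from 34 UMIs in 7 cells to 187 UMIs in 24 cells, with 57 of the 187 in 1 cell, and its ratio before subtraction was 4.18 in place of 3.04 without the marker-carrying cells.

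The same ratios were computed over all cells of the Ms4a4b cluster and in the Itm2a cluster. Tuba1a was at 1.37 (1.19 to 1.56) here and 0.64 (0.49 to 0.78) in the Itm2a cluster, Lgals1 at 1.40 (1.30 to 1.51) and 0.37 (0.21 to 0.53), and Crip1 at 1.44 (1.36 to 1.53) and 0.35 (0.20 to 0.50). Klf6 was at 2.24 (1.90 to 2.62) and 1.25 (0.83 to 1.68), Adgre5 at 1.88 (1.55 to 2.23) and 0.75 (0.19 to 1.31), and Rasgrp2 at 0.90 (0.75 to 1.07) and −0.16 (−0.43 to 0.10). For these 6 genes the counting intervals of the clusters do not overlap. Anxa2 differed from them, at 1.89 (1.61 to 2.20) and 1.71 (1.38 to 2.07), with intervals that overlap. All these genes were named for their ratios in the Ms4a4b cluster, which favours higher values here than elsewhere. In the largest DP cluster Tuba1a was at 0.40 (0.23 to 0.57), Adgre5 at 0.42 (0.12 to 0.74) and Crip1 at 0.33 (0.17 to 0.50). Lgals1 was at 0.05 (−0.10 to 0.21) there and Rasgrp2 at −0.06 (−0.30 to 0.18).

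Because Cdc42 is a small GTPase that controls actin, and ezrin, radixin and moesin (the ERM proteins) tie actin to the membrane of microvilli, actin genes were read as a list. Of 34 ERM and actin genes, 31 lay above the median of all genes in Cd4-only cells and 26 in Cd8-only cells, with list medians of 0.28 and 0.19 above it. Before the median was subtracted, 3 of 32 genes with at least 100 UMIs and 2 of 34 were at least 2-fold higher, and 0 were 2-fold lower. Over all genes 3.14% and 4.03% were higher and 0.672% and 0.907% lower. The highest ratios of the list before subtraction were 1.12 and 1.10, with medians of all genes at 0.19 and 0.27. No gene of the list was therefore 2-fold higher relative to the median. In Cd8-only cells the list's share was near that of all genes. Ezr, ezrin, stood at 201 and 439 CPM in Cd4-only cells and at 207 and 444 in Cd8-only cells, relative ratios of 0.94 (0.58 to 1.30) and 0.84 (0.55 to 1.13). Msn, moesin, was at 0.42 and 0.35, and Flna, the actin cross-linker filamin A, at 0.85 (0.44 to 1.29) and 0.74 (0.36 to 1.13). Actb, the actin gene with the most UMIs, was at 0.71 (0.65 to 0.77) and 0.34 (0.29 to 0.38). Of 24 genes for Cdc42, its regulators and effectors, 18 and 17 lay above the median of all genes, with list medians of 0.21 and 0.16. Rhoa, a related GTPase, was at 0.70 (0.44 to 0.96) and 0.88 (0.66 to 1.10), and Cdc42 at 0.13 (−0.14 to 0.40) and 0.16 (−0.05 to 0.38). In the Itm2a cluster the ERM and actin list was at −0.01, with 17 of 34 genes above the median of all genes. Ezr and Rhoa were nonetheless higher in KO in that cluster, at 0.51 (0.36 to 0.66) and 0.42 (0.30 to 0.53). Over all cells of the Ms4a4b cluster they were at 0.87 (0.71 to 1.03) and 0.67 (0.55 to 0.79), and in the largest DP cluster at 0.16 and 0.18.

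Genes of the T cell receptor complex and its first signalling steps lay a little below the typical gene, with list medians of −0.14 and −0.17, and 6 and 5 of 18 genes above it. None was past 2-fold in either direction. Cytokine receptor and survival genes were at −0.20 and −0.22, with 6 of 18 and 6 of 19 above it. Il6ra, a chain of the interleukin-6 receptor and 1 of the genes leading the cluster, went the other way, at 1.19 (0.63 to 1.8) and 1.15 (0.51 to 1.84).

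**Figure D4:**
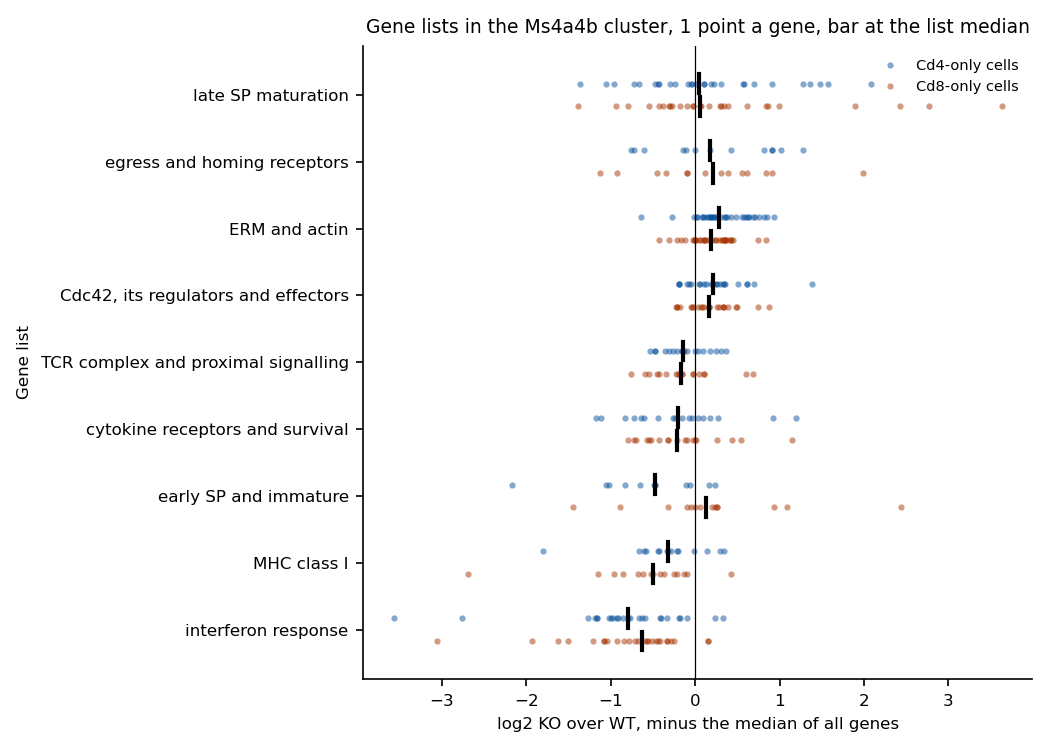
Log2 ratio of KO over WT, minus the median of all genes, for the genes of 9 lists (rows) in Cd4-only cells (blue) and Cd8-only cells (brown), 1 point a gene with at least 20 UMIs and a black bar at each list's median. The lists run from late SP maturation to interferon response as labelled, without the lineage lists and those of other cell types, and among these 9 the interferon response list lies lowest, with medians of −0.80 and −0.63, and the ERM and actin list lies at 0.28 and 0.19.

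The interferon response genes were mostly lower in KO. They are induced when interferon signals lead to the binding of interferon-stimulated response elements in promoters. Of 25 such genes with enough UMIs in Cd4-only cells and 26 in Cd8-only cells, 2 lay above the median of all genes in each class, and the list medians were −0.80 and −0.63. Of 16 and 21 of them with at least 100 UMIs, 1 gene in each class was at least 2-fold lower before the median was subtracted, which in Cd8-only cells was Ifit1, against 0.672% and 0.907% of all genes. The sequences before the start sites of Ifit1, Ifit3 and Isg15, 3 of the genes that were lower in KO in both classes, are shown because they carry the core of this element, GAAANNGAAA, or on the opposite strand TTTCNNTTTC. Each is the 250 bases before the start site from RefSeq on GRCm38.p6, read 5′ to 3′ on the gene's own strand, with matches in capitals.
Ifit1, chr19:34640639-34640888, plus strand: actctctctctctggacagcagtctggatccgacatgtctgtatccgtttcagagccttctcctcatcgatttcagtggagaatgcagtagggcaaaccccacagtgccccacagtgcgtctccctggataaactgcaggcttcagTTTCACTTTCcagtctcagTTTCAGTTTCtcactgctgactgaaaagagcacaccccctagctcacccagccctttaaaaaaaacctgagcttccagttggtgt
Ifit3, chr19:34583279-34583528, plus strand: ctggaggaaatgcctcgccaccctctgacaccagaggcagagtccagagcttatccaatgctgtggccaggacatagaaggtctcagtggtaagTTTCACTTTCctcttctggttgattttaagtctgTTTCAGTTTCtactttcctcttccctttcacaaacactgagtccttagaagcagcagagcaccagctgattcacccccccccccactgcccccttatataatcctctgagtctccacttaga
Isg15, chr4:156200819-156201068, minus strand: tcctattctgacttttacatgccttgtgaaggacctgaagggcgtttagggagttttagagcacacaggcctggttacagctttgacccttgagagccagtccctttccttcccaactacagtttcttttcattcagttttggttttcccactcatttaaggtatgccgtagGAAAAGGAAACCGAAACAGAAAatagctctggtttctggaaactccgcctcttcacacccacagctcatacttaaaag

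Ifit1 and Ifit3 hold 2 separate matches each, and Isg15 holds 3 that overlap in 1 run. The first base of the nearest match lies 85, 122 and 66 bases before the start. Over all genes with such a window, 936 of 27025 (3.46%) hold a match on either strand. Of 28 interferon response genes 21 were found in the table and 13 of these (61.9%) hold one, against 0 of 22 late SP genes. A match is a description of letters and not a mapped binding site.

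Ifit3, which encodes an interferon-induced protein with tetratricopeptide repeats, had 41 UMIs in 12 Cd4-only cells of WT and 3 UMIs in 3 such cells of KO, and 78 UMIs in 29 Cd8-only cells of WT and 7 UMIs in 4 of KO. Its relative ratios were −3.57 (−6.11 to −2.12) and −3.06 (−4.51 to −2.04). Ifit1, of the same family, had 104 and 51 UMIs in Cd4-only cells and 133 and 37 in Cd8-only cells, relative ratios of −1.02 (−1.54 to −0.53) and −1.5 (−2.08 to −0.98). Isg15, a ubiquitin-like modifier, had 184 and 82 UMIs and 243 and 91 UMIs, relative ratios of −1.16 (−1.56 to −0.78) and −1.08 (−1.45 to −0.73). After thinning, 27.9% of WT cells of the cluster (23.1 to 33.1) and 14.2% of KO cells (10.9 to 18.1) had an Isg15 UMI, against 2.48% and 3.32% of the cells of the DP clusters. Ifi27l2a, the interferon gene with the most UMIs, was at −0.85 (−0.99 to −0.71) and −1.21 (−1.35 to −1.07), and Gbp2, an interferon-induced GTPase, at −2.76 (−4.11 to −1.76) and −1.62 (−2.77 to −0.69). In the Itm2a cluster the list was at −0.96 with 0 of 26 genes above the median of all genes, and Isg15 was at −1.57 (−1.82 to −1.34). In the largest DP cluster it was on the other side, at 0.52 with 22 of 23 genes above the median, where Isg15 had 22 and 91 UMIs. With at least 2 coreceptor UMIs required for the sort, the list median of the Cd4-only cells was −0.16, and Ifit1 was at 0.07 and Isg15 at −0.21 before subtraction in place of −0.83 and −0.97, whereas the list median of the Cd8-only cells was −0.61.

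MHC class I genes, many of them also induced by interferon, had list medians of −0.32 and −0.50, with 3 and 1 of 15 genes above the median of all genes. H2-Q7, of the nonclassical Qa-2 group, had the lowest ratio over both classes among genes with at least 100 UMIs in each. It had 92 and 26 UMIs in Cd4-only cells and 329 and 40 in Cd8-only cells, relative ratios of −1.8 (−2.51 to −1.18) and −2.69 (−3.22 to −2.23). The H2-Q genes are near-identical, as are Ifit3 and Ifit3b and several Gimap genes, so reads may be split or dropped in counting and these values are uncertain. In WT, H2-Q7 had a UMI in 36 of 76 Cd4-only and 80 of 106 Cd8-only cells, and in KO in 10 of 90 and 18 of 97. Rgs10, which speeds the end of G protein signals, had 505 and 181 UMIs and 553 and 140 UMIs, relative ratios of −1.48 (−1.73 to −1.23) and −1.65 (−1.93 to −1.38), with a UMI in most cells of each class. In the Itm2a cluster Rgs10 was at −0.44 (−0.53 to −0.34), against −1.5 (−1.62 to −1.37) over all cells of the Ms4a4b cluster, whereas H2-Q7 was at −2.49 (−3.35 to −1.8) there and −1.63 (−1.85 to −1.41) here. With at least 2 coreceptor UMIs required for the sort, which left 31 WT and 41 KO Cd4-only cells, the ratios before subtraction in those cells were −0.98 for H2-Q7, −0.68 for Rgs10 and −0.08 for AW112010, all short of 2-fold, and −1.39 for Id2 and −3.08 for Ikzf2.

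Regulatory T cell genes were among the lower genes. Foxp3, the transcription factor that defines regulatory T cells, had 58 UMIs in 20 of 332 WT cells and 0 UMIs in 396 KO cells. A floor of 3 counts puts the share of KO cells with a UMI at up to 0.758%, and the exact interval reaches 0.927%. Among the WT cells with Foxp3, 6 were Cd4-only, 2 Cd8-only, 7 carried both coreceptors and 5 neither. Over the whole series Foxp3 was found in 22 WT cells, 20 of them in this cluster, and in 0 KO cells. Of 10 regulatory T cell genes, 6 had enough UMIs in Cd4-only cells, all below the median of all genes, with a list median of −1.60, and their summed level was 887 CPM in WT and 304 in KO. In Cd8-only cells the sums were 483 and 362, and the median of 5 genes was 0.24. Ikzf2 (Helios) had 155 and 34 UMIs in Cd4-only cells and 225 and 65 in Cd8-only cells, relative ratios of −2.17 (−2.77 to −1.65) and −1.45 (−1.88 to −1.06). Tnfrsf4 was at −2.25 (−3.05 to −1.57) in Cd4-only cells. Icos, a costimulatory receptor, had 56 and 13 UMIs in Cd4-only cells and 49 and 11 in Cd8-only cells, and Izumo1r, the folate receptor FR4, 81 and 12 and then 58 and 22. In the Itm2a cluster, where 1 WT cell had a Foxp3 UMI, Tnfrsf4 was at −1.79 (−2.17 to −1.45) and Icos at −0.89 (−1.24 to −0.57). Ikzf2 was at −0.15 (−0.30 to −0.01) in that cluster and Izumo1r at 0.19 (0.00 to 0.38).

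Cells with UMIs of Foxp3 or of 4 other markers of minor populations (Zbtb16, Trdc, Mki67, Top2a) were left out in a second reading, and some of the lower genes rest on those cells. Before the median was subtracted, Ikzf2 went from −1.99 to −1.72 in Cd4-only cells and Tnfrsf4 from −2.06 to −1.73, so they were lower in KO among the remaining cells too. Regulatory T cells without a Foxp3 UMI may be among these remaining cells. Id2, an inhibitor of E protein transcription factors, went from −1.26 to 0.17 in Cd4-only cells, and AW112010 from −1.13 to 0.06. In Cd8-only cells Id2 had 163 UMIs in 45 cells of WT and 18 in 6 cells of KO, and its ratio stayed below 0 without those cells, at −3.15 in place of −2.55. Inpp4b, a phosphoinositide phosphatase, had 130 and 19 UMIs in Cd8-only cells, a relative ratio of −2.41 (−3.22 to −1.74), and 104 and 55 UMIs in Cd4-only cells, at −0.91 (−1.42 to −0.43). Klrd1 (CD94), a receptor of natural killer and CD8 T cells, had 127 UMIs in 31 Cd8-only cells of WT and 22 UMIs in 9 of KO.

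Markers of other cells were unequal between the libraries in some classes. Rag1, a gene of DP cells, had a UMI in 6 of 106 Cd8-only cells of WT and 14 of 97 of KO, with 14 and 62 UMIs, and in 8 of 76 and 2 of 90 Cd4-only cells. The summed level of 12 DP genes was 301 CPM in WT and 738 in KO in Cd8-only cells, with 1 and 0 of the 12 at 0 UMIs, and 253 and 247 in Cd4-only cells, with 3 and 4 at 0. In the largest DP cluster Rag1 alone stood at 3310 and 3063. Rag1 UMIs were also found in 11.1% of WT and 26.4% of KO cells of the Cd74 cluster of B and dendritic cells. In the Apoe cluster of macrophages these shares were 3.33% and 20.4%. A Rag1 UMI alone therefore does not mark a DP cell. The 16 innate-like T cell genes summed to 1020 and 834 in Cd8-only cells and to 233 and 158 in Cd4-only cells, and 9 gamma-delta T cell genes to 207 and 423 and to 124 and 77.7. Over the whole cluster, 13 B cell genes summed to 237 in each library, 11 myeloid genes to 180 and 344, 7 epithelial genes to 29.6 and 27.8, and 5 red blood cell genes to 7.3 and 1.76. The part of such cells, or of RNA from outside the cell, in the ratios was not tested. Without cells that carried UMIs of DP or innate-like marker genes, the Cd8-only ratios before subtraction were 1.36 in place of 1.26 for Klf2, 1.39 in place of 1.11 for S1pr1, 2.02 in place of 1.73 for Crip1 and −3.78 in place of −2.43 for H2-Q7.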

How the data were processed

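Thymocytes were profiled by 10x 3′ single-cell RNA sequencing in 1 pooled library per genotype. The authors made the deposited counts, UMIs of 20282 genes per cell without normalization, with Cell Ranger 3.0.2 and the build mm10, as the submitters' processing notes name them, kept cells with 200 to 6000 genes and at most 50000 reads, and clustered them in Seurat. The cluster numbers at resolution 1.5 were used as deposited, and each cell's library was taken from the WT or KO of its name, in which Cdc45 stands where the labels have Cdc42. Of the 29706197 WT and 37920214 KO UMIs, those of the cluster were summed per coreceptor class and library in Python 3.11.15 with scipy 1.17.1.

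Log2 ratios of CPM were computed after 0.5 was added to each sum. Intervals at 95% are conditional binomial for ratios, Poisson for levels and Clopper-Pearson for shares, and their width follows the number of UMIs or cells. A 2-fold mark was applied to genes with at least 100 UMIs, and list medians were taken over genes with at least 20. On simulated counts with 200 changed genes the computation was tested and placed most of them past 2-fold in the given direction. These counts were independent Poisson draws, so the simulation does not cover genes whose UMIs sit in a few cells. No statistical test was possible with a single library for each genotype. The genes named were those of the lists, the 10 with the largest ratios in each direction for Cd4-only against Cd8-only cells in both libraries and for KO over WT in each class and in both, the 5 in each direction that differed most between the classes, and the 10 leading genes of the cluster. The coreceptors were left out. The cluster, its members and the lists were chosen with earlier results of these data known. No doublets were removed; cells with the highest scanpy 1.11.5 Scrublet scores, at a rate of 6%, were left out as an alternative. The other alternatives were the scaling (edgeR 4.0.16 TMM, DESeq2 1.42.0 size factors), thinning, the sort, the minimum of UMIs, the clustering resolution and the cells left out. Some genes that the rule names are not reported here.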

Additional observations from a re-analysis of the deposited data

Results flagged for a closer look

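Of 184 named genes with at least 100 UMIs in each class, 2 had ratios of KO over WT on opposite sides of the median of all genes in the coreceptor classes, with counting intervals that did not reach it. Satb1, a chromatin organizer of developing T cells, had a relative log2 ratio of −0.47 (−0.66 to −0.27) in Cd4-only cells and 0.20 (0.02 to 0.38) in Cd8-only cells, a difference of −0.75 before the medians were subtracted. Its level was 1070 and 882 CPM in Cd4-only cells of WT and KO, and 655 and 908 in Cd8-only cells. Tmsb4x, which encodes the actin-binding thymosin beta-4, had relative ratios of 0.22 (0.17 to 0.27) and −0.12 (−0.16 to −0.08), a difference of 0.26. With 1 library per condition these differences were not tested.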

How the results depend on the processing

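No paired analysis was possible because WT and KO share only replicate number 1. Of 568 recomputed values of the main results 497 stayed within the limits set for them, as did 1998 of 2178 for single genes. The main results include 22 list medians that could not move under the other scalings, because the median of all genes is subtracted from them. Their unchanged values under those scalings are no sign of stability. Of the cells of both SP clusters, the cluster held 40.9% in WT and 55.6% in KO. With at least 2 coreceptor UMIs required, Cd4-only shares were 9.34% in WT and 10.4% in KO, Cd8-only shares 26.2% and 17.7%, the CD8 lineage median −1.64 in WT and the interferon median −0.16 in Cd4-only cells, 19 and 5 genes were 2-fold higher and lower in KO in Cd4-only cells, Ccl5 reached 0.07 in WT and Gzma 0.76. Sorted by the more abundant coreceptor, Cd8-only shares were 41.3% and 41.7%, the KO Cd4-only share 28.8%, 2 and 14 genes were higher in Cd4-only and Cd8-only cells, and Gzma was at 0.71. Sorted after thinning, Cd4-only shares were 12.9% and 15.5%, the KO Cd8-only share 31.7%, the Cd4-only KO counts 21 and 5, and Gzma 5.37. Without Foxp3 or other minor-population cells, 3 genes were higher in Cd8-only cells, the CD8 lineage medians were −3.42 and −0.83, Ccl5 was 1.93 in KO, and Id2 and AW112010 were 0.17 and 0.06. Without DP or innate-like marker cells, chosen after seeing the data, the KO Cd4-only share was 31.2%, 1 gene was higher in each class, 5 were lower in KO in Cd4-only cells, the CD8 lineage medians were −3.90 and −1.07, Ccl5 was 5.31 in KO and Gzma 0.93. The Gzma values are log2 ratios of KO over WT in Cd8-only cells before subtraction, where the main ratio was below 0. That ratio had 232 WT and 48 KO UMIs and rests on 1 WT cell with 226 of the 232. The Ccl5 values are log2 ratios of Cd4-only over Cd8-only cells, below 0 in both libraries in the main result. Id2 and AW112010 are KO over WT in Cd4-only cells. Thinning after the sort left 0 genes higher in Cd8-only cells, and 17 higher and 5 lower in KO in Cd4-only, 19 and 6 in Cd8-only cells. Thinning, a stricter sort and leaving out cells all remove UMIs, so fewer genes reach the minimum. Counts of genes under these settings do not tell a lost difference from lost eligibility. In thinned cells Runx3 was found in 5.33% of Cd4-only and 30.2% of Cd8-only cells of WT, and 7.78% and 27.1% of KO. For Ccr9 these shares were 16% and 39.6% in WT, and 13.3% and 27.1% in KO. The KO counts under other scalings were 20 and 17 without ribosomal and mitochondrial genes, 19 and 20 with TMM or DESeq2 factors in Cd4-only cells, and 35 and 40, 25 and 54, 26 and 54 in Cd8-only cells. At minimums of 50, 200 and 1 UMI the Cd4-only counts were 110, 18 and 2553 higher and 29, 3 and 2247 lower, the Cd8-only counts 192, 30 and 3044 higher and 50, 7 and 1042 lower, and between classes 1 and 405 genes were higher in Cd4-only cells (at 50 and 1) and 11, 1 and 373 in Cd8-only cells. Klf2 was in 48.0% and 77.0% of cells thinned to 1000 UMIs and 84.9% and 96.2% unthinned, S1pr1 in 22.1% and 47.2%, and 65.1% and 89.4%. The causes were not tested. WT and KO differ in depth and 1 library each gives no spread, so small ratios are not told apart from library effects.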

Other observations

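Cells with both or neither coreceptor fell outside the classes compared. Of the double-labelled cells, 24 of 71 in WT (33.8%, interval 23 to 46) and 53 of 118 in KO (44.9%, 35.7 to 54.3) carried Rag1 UMIs, and 12 DP genes summed to 1288 and 2003 CPM there. Of the cells with neither coreceptor, 13 of 79 in WT (16.5%) and 20 of 91 in KO (22%) carried UMIs of Trdc, the constant gene of the delta T cell receptor chain, and Trac, that of the alpha chain, was found in 82.3% and 82.4% of them, against 97.4% and 95.6% of Cd4-only cells. Innate-like T cell genes summed to 2009 and 2329 CPM in these cells, and gamma-delta T cell genes to 921 and 1201.

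Genes of ribosomal proteins were the most abundant of those that were lower in KO in both classes. Rplp1 stood at 8343 and 4993 CPM in Cd4-only cells and 8546 and 5114 in Cd8-only cells, relative log2 ratios of −0.93 and −1.01. Rpl28 was at −1.09 and −1.14, and Rps26 at −0.95 and −1.14.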
